A study of Mus musculus with 6 samples.

Results

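Megakaryocyte and platelet genes are described here in leukemia stem cells, the leukemia cells able to start the disease again in a new host, taken from the bone marrow and the liver of mice. The 10 genes Pf4, Ppbp, Gp9, Gp1ba, Gp1bb, Gp5, Gp6, Vwf, Cd9 and Treml1 were chosen by symbol as platelet glycoproteins and granule genes, and all 10 were found among the 53735 genes measured. RNA sequencing covered 6 libraries, 3 per tissue, from untreated mice of strain C57 that are labelled male. Cells were isolated on day 13 after transplantation with leukemia cells, and both tissues share this history, so there is no group without leukemia. The sources used here do not give the oncogene that drives the leukemia, the age of the mice or the gate used for sorting. Libraries of a tissue are called technical replicates in the labels and no animals are named, so each p-value reflects spread among these libraries only. How far that spread is technical is not stated, but the sex-linked transcripts given below show that replicates 1 and 2 of a tissue are not repeats of 1 sample.

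Megakaryocytes are the large marrow cells that shed platelets, and they share a progenitor with red cells. Their program is driven by GATA1 with its partner FOG1 and by ETS family factors, and its products fall into adhesion receptors on the surface and proteins packed into granules. The GPIb-IX-V complex, built from the products of Gp1ba, Gp1bb, Gp9 and Gp5, binds von Willebrand factor on damaged vessels, and GPVI, the product of Gp6, binds collagen.

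Values are normalized counts, meaning reads per gene divided by a size factor of the library. Whole reads could be recovered for 100% of the values within a tolerance of 0.01 read. Depth was 15.4 to 18.5 M reads in bone marrow and 9.73 to 13.8 M in liver, where 1 read was worth 0.988 to 1.42 normalized counts. Libraries numbered 1 and 2 stood apart in sex-linked transcripts. Xist, which silences an X chromosome in female cells, was at 4860 (bone marrow) and 6229 (liver) in replicates 1 and at 4.28 and 1.42 in replicates 2. Replicates 3 lay between them at 2486 and 2425. The sum of 4 Y-linked genes went the other way, at 145, 2987 and 1553 in bone marrow replicates 1, 2 and 3 and 0, 2675 and 1634 in those of liver. Over all tested genes, replicate 3 had a median of 0.993 (bone marrow) and 0.995 (liver) times the mean of replicates 1 and 2. Whether the libraries of replicate 3 are independent of the other two was not tested, and every SE, interval and p-value with n = 3 counts them as separate samples. Without both of them 0 of 9 platelet genes had a limma adjusted p under 0.05, but only 2 of all 14298 genes did. So few calls in that fit leave the 0 of 9 with little meaning. The median log2 fold change of the 9 genes was then -0.07. Of 9 stem and progenitor markers, among them Kit, Cd34 and Ly6a, 9 averaged 10 or more normalized counts. So did 8 of 8 basophil and mast cell markers and 9 of 10 neutrophil markers, so this count does not set stem cells apart.

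The 250 bases before the RefSeq start of each gene (GRCm38.p6) were searched for words bound by the 2 factor families named above. Of the 10 genes 9 had an entry, Vwf having none. GATA words were AGATAA as well as AGATAG and the word TGATAA as well as TGATAG, and ETS words were AGGAAG as well as CGGAAG, each on both strands. A GATA word stood in 4 of 9 genes (Gp1ba, Gp1bb, Gp5 and Gp6) and in 27.1% of 27025 promoters, and an ETS word in 6 of 9 and in 39% of promoters. Both stood in 3 of 9 genes, Gp1ba, Gp1bb and Gp5, and in 9.38% of promoters. A match is a stretch of letters and not a measured binding site. The upstream sequences of Pf4 and Ppbp are shown as those of the 2 neighbouring granule genes, and those of Gp1ba and Gp5 as the 2 with the most GATA words, 3 each. They run 5′ to 3′ on the strand of the gene and end at the base before its start, and capitals mark the words on either strand. Their positions are chr5:90772185-90772434, chr5:90768268-90768517 and chr11:70638872-70639121 on the plus strand and chr16:30310782-30311031 on the minus strand. No word overlapped another.
Pf4: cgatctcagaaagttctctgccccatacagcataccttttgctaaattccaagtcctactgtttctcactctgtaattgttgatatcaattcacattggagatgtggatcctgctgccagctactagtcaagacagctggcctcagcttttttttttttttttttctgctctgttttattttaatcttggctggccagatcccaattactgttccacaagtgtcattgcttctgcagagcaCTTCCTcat
Ppbp: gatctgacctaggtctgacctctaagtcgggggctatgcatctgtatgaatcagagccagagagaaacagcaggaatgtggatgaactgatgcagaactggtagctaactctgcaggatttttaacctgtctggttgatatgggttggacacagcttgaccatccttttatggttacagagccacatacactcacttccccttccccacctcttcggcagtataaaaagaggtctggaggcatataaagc
Gp1ba: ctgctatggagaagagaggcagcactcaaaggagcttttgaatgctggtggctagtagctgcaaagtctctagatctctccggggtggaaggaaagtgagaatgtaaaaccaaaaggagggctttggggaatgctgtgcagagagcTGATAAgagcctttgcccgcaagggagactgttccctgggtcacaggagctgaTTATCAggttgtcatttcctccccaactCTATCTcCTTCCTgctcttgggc
Gp5: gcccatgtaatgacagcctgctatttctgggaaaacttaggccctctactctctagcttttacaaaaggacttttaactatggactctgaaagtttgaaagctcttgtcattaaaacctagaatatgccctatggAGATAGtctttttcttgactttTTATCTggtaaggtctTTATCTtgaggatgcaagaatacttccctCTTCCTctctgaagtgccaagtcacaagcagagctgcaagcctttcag
In Gp5 the 3 GATA words began 115, 93 and 77 bases before the start, and in Gp1ba 104, 51 and 23 bases before it. Pf4 held 1 ETS word 9 bases before the start, and Ppbp held neither kind.

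The 10 genes differed widely in level, from Pf4 among abundant transcripts to Gp6 at a few reads. Divided by the length of the longest coding transcript in GENCODE M21, Pf4 averaged 12941 normalized counts per kb over the 6 libraries. Pf4 encodes platelet factor 4, a heparin-binding chemokine of the alpha granules. Cd9, a tetraspanin found on platelets and on many other blood cells, followed with 3249 per kb. Gp9 had 649.9 per kb, Gp1bb 396, Gp5 305, Ppbp 235 and Gp1ba 122. Vwf had 66.7 per kb, Treml1 60.9 and Gp6 0.859. Ranges over the libraries did not overlap between Pf4 and Cd9, between Cd9 and Gp9 and between Treml1 and Gp6. The other neighbours in this order overlapped. In 4 of these pairs the first was nonetheless higher in 6 of 6 libraries, while Gp1bb lay above Gp5 in 3 of 6 libraries and Vwf above Treml1 in 4 of 6. With the summed length of all exons in place of the longest transcript, Vwf and Treml1 changed places, at 36.7 and 53.6 per kb.

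**Figure D1:**
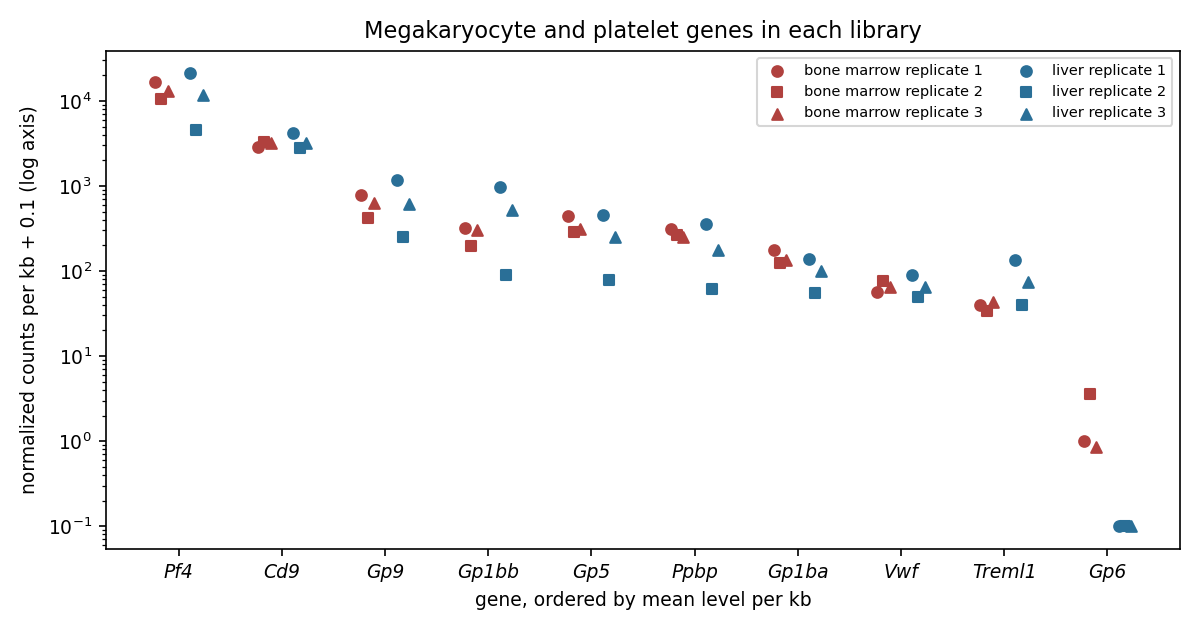
Level of each of the 10 genes in each library, in normalized counts per kb of the longest coding transcript plus 0.1 on a log axis; red symbols are bone marrow, blue symbols liver, and the shape gives the replicate number. Liver replicate 1 (circle) is the highest and liver replicate 2 (square) the lowest blue symbol for every gene except Gp6, whose 3 liver libraries are at 0.

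The liver comparison asks whether leukemia stem cells carry these transcripts at another level there than in bone marrow, and no difference passed the test. Of the 9 genes that averaged 10 or more normalized counts, 0 differed at an adjusted p under 0.05 (limma on log2(normalized count + 1), Benjamini-Hochberg over all genes), where 1.01% of 14298 genes did (0.42% higher and 0.594% lower in liver). At an unadjusted p under 0.05 there were 0 of 9 against 15.7% of all genes. On the recovered reads edgeR called 0 of 9, against 0.944% of all genes (0.371% higher, 0.574% lower), and DESeq2 called 0 of 9, against 4.35% (1.92% higher, 2.43% lower). In each of these tests 1 of 9 genes, Treml1, had an unadjusted p under 0.05, against 15.9% of all genes in edgeR and 14.2% in DESeq2. Fold changes were positive in 4 and negative in 5, with a median of -0.05 on the log2 scale beside -0.01 over all genes. Libraries of the 2 tissues overlapped in 9 of 9, while 22.3% of all genes showed no overlap (11.4% higher and 10.9% lower in liver). The 95% intervals were wide, reaching down to 0.238-fold for Ppbp and up to 4.67-fold for Gp1bb. They come from a fit without a term for the replicate number. In bulk RNA, fewer cells that express a gene and less of its RNA per cell cannot be told apart.

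Pf4 stood at 9734, 6160 and 7789 normalized counts in bone marrow replicates 1, 2 and 3 and at 12381, 2711 and 6882 in liver replicates 1, 2 and 3. The highest and the lowest of the 6 libraries were thus both from liver. The log2 fold change was -0.34 ± 0.49 (SE, n = 3 each), with a 95% confidence interval of -1.48 to 0.80 and a limma adjusted p of 0.80. Ppbp encodes the precursor of the neutrophil-attracting chemokine CXCL7, and it lies 2.37 kb upstream of Pf4 on chromosome 5 (Ppbp chr5:90768518-90770063 and Pf4 chr5:90772435-90773383, GRCm38, both on the plus strand). Ppbp held normalized counts of 337, 283 and 268 in bone marrow replicates 1, 2 and 3 and 383, 66.8 and 191 in those of liver. Its log2 fold change of -0.79 ± 0.55 (95% interval -2.07 to 0.49, limma adjusted p = 0.55) was the most negative of the 9. The value in liver replicate 2 rests on 47 reads. Without that library the log2 fold change of Pf4 was 0.25 and that of Ppbp -0.12.

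Genes of the GPIb-IX-V complex showed the same order of liver libraries but not the same sign against bone marrow. Gp1ba, the subunit that binds von Willebrand factor (chr11:70639122-70642036), had 483, 340 and 366 normalized counts in bone marrow replicates 1, 2 and 3 and 373, 149 and 269 in those of liver. Liver replicate 1 was inside the bone marrow range and the other two liver libraries below it. The log2 fold change was -0.67 ± 0.32, with an interval of -1.41 to 0.08 and a limma adjusted p of 0.37. Gp5 (chr16:30307685-30310779), whose product is cut by thrombin, had 974, 623 and 688 in bone marrow and 1009, 173 and 555 in liver, in the order of replicates. Its log2 fold change was -0.70 ± 0.57 (interval -2.03 to 0.63, limma adjusted p = 0.62). Without liver replicate 2 it was 0.00. Gp9 (chr6:87778072-87779768), which holds the complex together at the surface, had 699, 371 and 551 in bone marrow and 1046, 223 and 545 in liver. Its mean was higher in liver (605 ± 415 against 540.1 ± 164, SD, n = 3 each) while its log2 fold change was -0.05 ± 0.52 (interval -1.26 to 1.15, limma adjusted p = 0.97), so the sign depends on the scale. Without bone marrow replicate 1 it was 0.16 and without liver replicate 2 it was 0.53.

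Gp1bb, the disulfide-linked partner of the Gp1ba product, had the widest spread of the 9 genes in liver. It stood at 660 (replicate 1), 407 (replicate 2) and 625 (replicate 3) normalized counts in bone marrow and at 2004, 185 and 1079 in liver, a 10.8-fold range in liver. The log2 fold change was 0.42 ± 0.77 (interval -1.39 to 2.22, limma adjusted p = 0.85), and it was -0.30 without liver replicate 1. Gp1bb (chr16:18620317-18622403, minus strand) is uncertain, because in GENCODE M21 it shares 92.9% of its exon bases with Sept5 and the gene model Gm49601 on the same strand. Sept5 itself was listed at 8.92 to 24.7 normalized counts in the 6 libraries, and how reads common to both genes were assigned is not given in the sources used here.

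Gp6 was detected only in bone marrow libraries. It had 6, 24 and 6 reads in bone marrow replicates 1, 2 and 3 (5.39, 20.6 and 4.46 normalized counts) and 0 reads in each liver library. At a floor of 3 reads over the liver group the level in liver was at least 8.43-fold below the bone marrow estimate. This bound covers counting error in the liver reads only, not in the bone marrow reads or between samples. Without bone marrow replicate 2 the same bound was 4.14-fold and rested on 12 bone marrow reads. With a mean of 5.07 normalized counts Gp6 was below the minimum of 10 and was not tested. With no minimum its limma adjusted p was 0.09. Of the 36 reads in bone marrow, 24 came from replicate 2, the bone marrow library in which Pf4, Gp9, Gp1ba, Gp1bb, Gp5 and Treml1 were lowest.

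Vwf and Cd9 varied least of the 9 genes between liver libraries, and Treml1 was the member nearest to the threshold. Vwf (chr6:125546774-125686679), the adhesive ligand of GPIb that endothelial cells make as well, had 504, 673 and 568 normalized counts in bone marrow and 792, 431 and 567 in liver, in the order of replicates. Its log2 fold change was 0.00 ± 0.22 with an interval of -0.51 to 0.51 (limma adjusted p = 0.997). Of the 12 endothelial markers checked, Cdh5, Emcn and Cldn5 had 0 reads in every library. The summed level of the list was 944 to 1308 in bone marrow and 782 to 1319 in liver. Most of it came from Eng (mean 422 in bone marrow, 269 in liver), Tie1 (247, 325), Plvap (253, 281) and Egfl7 (163, 178). Eng was lower in every liver library, and the others overlapped. Cd9 lies 52.0 kb from Vwf (chr6:125460266-125494791, minus strand) and had 3529, 4007 and 3950 in bone marrow and 5149, 3418 and 3882 in liver. Its interval, -0.23 to 0.43, was the narrowest of the 9 (log2 fold change 0.10 ± 0.14, limma adjusted p = 0.80). Of its exon bases 10.7% are shared with Gm26728 on the opposite strand, and the library chemistry does not mark strand. Treml1 (chr17:48359916-48367176), a receptor stored in alpha granules and shown on activated platelets, had 49.4, 42.0 and 53.5 in bone marrow and 165, 49.7 and 91.5 in liver. Only liver replicate 2 lay inside the bone marrow range. Its log2 fold change of 0.91 ± 0.41 was the most positive of the 9 (interval -0.06 to 1.87) and its limma adjusted p of 0.35 the lowest. Without liver replicate 1 the log2 fold changes of Vwf and Cd9 were -0.22 and -0.07, and that of Vwf was -0.10 without bone marrow replicate 1 and -0.01 without bone marrow replicate 3.

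**Figure D2:**
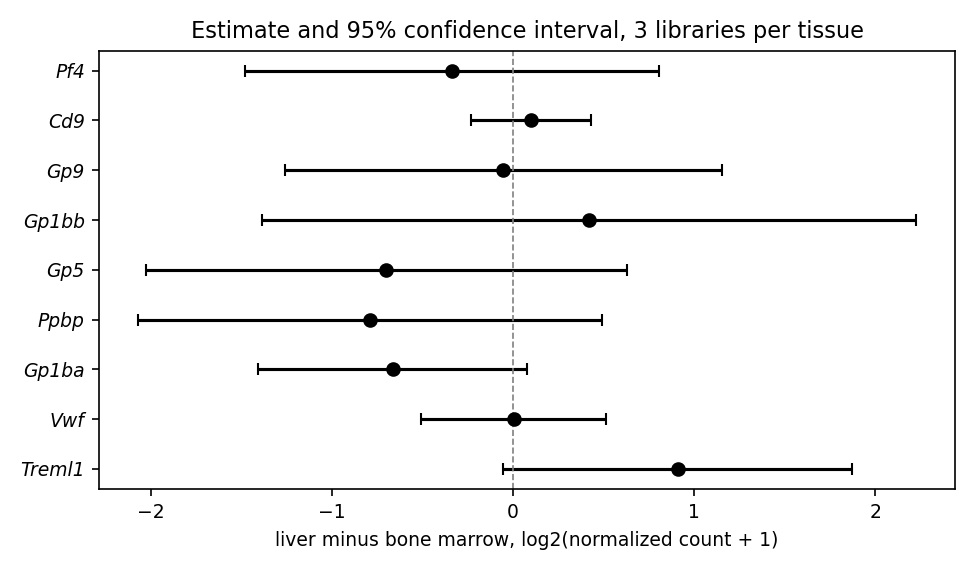
Log2 fold change of liver over bone marrow for the 9 tested genes, on the log2(normalized count + 1) scale; points are the estimates and bars the 95% confidence intervals over 3 libraries per tissue. Every interval includes 0, and those of Gp1bb and Gp5 are the widest while that of Cd9 is the narrowest.

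The median of the 9 genes depended on which liver library was left out. It was -0.58 without liver replicate 1 and 0.23 without liver replicate 2, against -0.05 with all libraries. It was -0.30 without bone marrow replicate 2. In these 3 fits 0 of 9 genes passed, against 433, 86 and 17 of all genes, in the same order. Without liver replicate 1 there were 4 genes at an unadjusted p under 0.05 in limma (Ppbp, Pf4, Gp1ba and Gp5), against 20.1% of all genes in that fit. Without liver replicate 2 there were 2 (Gp1bb and Treml1), against 15.9%.

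Between libraries of a tissue the 9 genes spread more widely in liver than in bone marrow, a difference that was not tested. The highest liver library was at least 2-fold the lowest in 7 of 9 genes, where 8.43% of the 11442 genes with a mean of at least 50 were that wide. The ratio ran from 1.51 for Cd9 to 10.8 for Gp1bb, with a median of 4.57 beside 1.27 over all tested genes. In bone marrow 0 of 9 genes reached 2-fold (3.82% of the 11442), and the median ratio was 1.42 beside 1.21. Replicate 1 lay above replicate 2 in both tissues in 7 of 9 genes, all except Vwf and Cd9, and in 30.4% of all tested genes. At 1.5-fold or more in both tissues there were 4 of 9, Pf4, Gp9, Gp1bb and Gp5, against 2.81%. Replicate 3 lay between the other two in both tissues in 7 of 9, against 24.2%. In liver its level was 0.851 to 1.03 times the mean of replicates 1 and 2 across the 9 genes, and in bone marrow 0.861 to 1.17 times. These counts describe single libraries, the 9 genes are not independent of each other, and none of the shares was tested.

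Markers of other cells varied between the same libraries. The summed level of 10 neutrophil markers was 859, 5903 and 3777 normalized counts in liver replicates 1, 2 and 3 and 400.4 to 649.9 in bone marrow. The liver library lowest in platelet genes was thus the highest in this sum. Most of it in liver replicate 2 came from Mpo (2250), Ctsg (1663), Elane (631) and Prtn3 (577). Lcn2 (401), Ngp (131), S100a8 (98.1), Ltf (71.1), S100a9 (68.2) and Camp (12.8) made up the rest. Which cells carried these transcripts was not tested. Summed monocyte and macrophage markers were 1222, 3706 and 2766 in liver replicates 1, 2 and 3 and 1878 to 2833 in bone marrow. Members of this list went both ways. Ly6c2 (mean 59.4 in bone marrow, 672 in liver) and Cd68 (594, 726) had higher means in liver. Cx3cr1 (367, 196) was lower in every liver library, and Csf1r (171, 126), Ccr2 (756, 522) and Adgre1 (429, 323) had lower means there. Clec4f and Vsig4, markers of liver macrophages, were at 0 in every library. The 8 basophil and mast cell markers summed to 18366, 28176 and 24025 in liver and 26818 to 31493 in bone marrow. Within that list Cpa3 (mean 3666 in bone marrow, 927 in liver), Fcer1a (939, 240.3), Hdc (5280.0, 3409) and Tpsb2 (120.0, 0.401) were lower in every liver library, and Prss34 (207, 2546) was higher in every one. Mcpt8 (925, 1714), Ms4a2 (3959, 2664) and Gata2 (14025, 12022) overlapped between the tissues. Erythroid markers, 9 of 10 in the table, summed to 6587 to 7284 in bone marrow and 4275 to 4830 in liver. Of 10 hepatocyte markers 6, among them Alb and Ttr, had 0 reads in every library, while Apoa1 stood at 2285 to 5659 normalized counts and made up most of the list's sum of 2311 to 5697. Of 10 T, NK and B cell markers 4, among them Cd3e and Ms4a1, had none, while Nkg7 stood at 10335 to 11742 of a summed 10340.4 to 11776. The part of these cells, and of the sex-linked difference between the same libraries, in the levels of platelet genes was not tested.

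**Figure D3:**
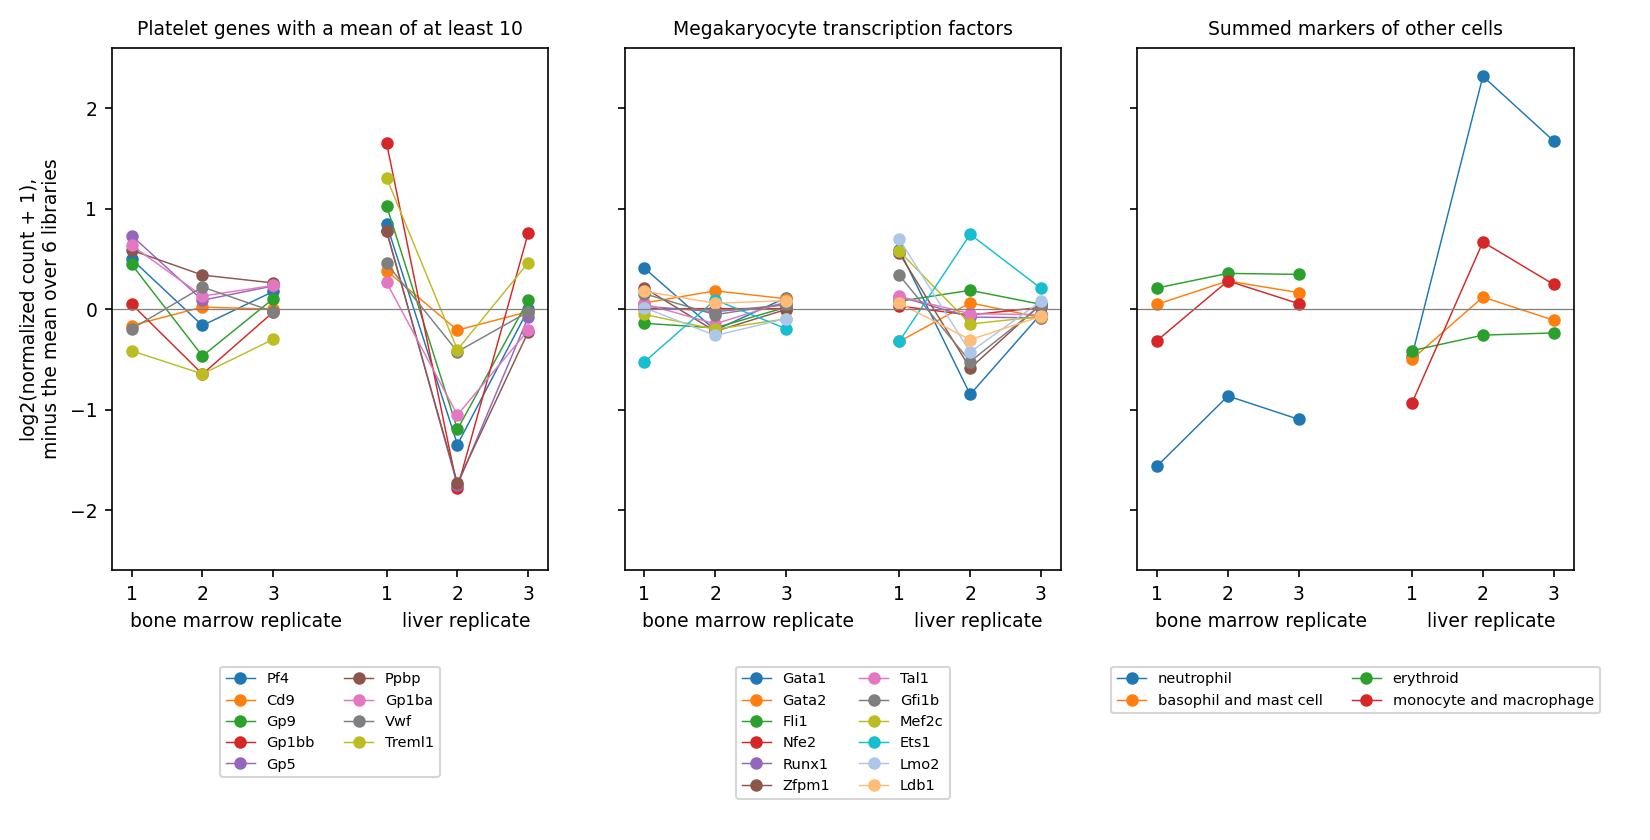
Level in each library as log2(normalized count + 1) minus its mean over the 6 libraries, for the 9 tested platelet genes (left), the 12 megakaryocyte transcription factors (middle) and the summed markers of 4 other cell types (right); lines join libraries of a tissue only to guide the eye. Among liver libraries the platelet genes are highest in replicate 1 and lowest in replicate 2, where the neutrophil sum is highest.

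The genes whose profile over the 6 libraries was most like the mean of the 9 were Scamp1 (Pearson r = 0.997), Gem (0.996), Gfi1b (0.994), Col5a1 (0.994) and Gstm5 (0.993), among genes with a mean of at least 50. Gfi1b, a repressor required for the megakaryocyte and red cell lineages, stood at 1684, 1457 and 1572 normalized counts in bone marrow replicates 1, 2 and 3 and at 1913, 1055 and 1555 in those of liver. The single most similar gene was Serpina3h for Pf4 (r = 0.999), Trpc6 for Gp1bb (0.998), Ccnl1 for Gp9 (0.998), Usp20 for Gp5 (0.997), Brf1 for Gp1ba (0.997), AC151736.3 for Treml1 (0.996), Tsnax for Cd9 (0.991), RP23-13C17.6 for Ppbp (0.990) and Tmem163 for Vwf (0.984). Each is the best of many genes over 6 libraries that share their depth with it, so these values are a description only. Among the 9 genes the highest r was 0.987, between Ppbp and Gp5. The median r with the other 8 was 0.894 for Pf4 and 0.573 for Treml1, the highest and the lowest of the 9.

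Transcription factors of the megakaryocyte program were all measured, and 0 of 12 passed the test in limma, against 1.01% of all genes. Of the 12, 2 had an unadjusted p under 0.05 in limma, against 15.7% of all genes. DESeq2 and edgeR also called 0, against 4.35% and 0.944% of all genes. Each had 2 of the 12 at an unadjusted p under 0.05, against 14.2% and 15.9%. The median log2 fold change was 0.00, with 6 positive and 6 negative. Fli1, an ETS factor of megakaryocytes, averaged 1156 ± 87.5 (bone marrow) and 1334 ± 68.6 (liver) normalized counts, SD with n = 3 each (log2 fold change 0.21, limma adjusted p = 0.27). Gata2, which acts in progenitors and in mast cells, averaged 14025 and 12022 (-0.23, limma adjusted p = 0.30), Ldb1 had a log2 fold change of -0.21 and Ets1 of 0.42. Gata1, singled out after its values were seen, had 1968, 1283 and 1605 in bone marrow replicates 1, 2 and 3 and 2233, 823 and 1435 in those of liver. It thus had the library order of Pf4 in both tissues, with a log2 fold change of -0.21 and a limma adjusted p of 0.83. Replicate 1 was above replicate 2 in both tissues in 8 of the 12 factors, against 30.4% of all tested genes. At 1.5-fold or more there was 1 of 12, against 2.81%.

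Among platelet integrins and tetraspanins 1 of 7 genes fell in liver, Itga2b, where 0.594% of all genes fell. Itga2b, the alpha chain of the fibrinogen receptor and an early marker of the lineage, had 19537, 18984 and 18430 normalized counts in bone marrow and 14576, 10831 and 11846 in liver, in the order of replicates. Every liver library was below every bone marrow library, as in 10.9% of all genes. Its log2 fold change was -0.62 ± 0.10 with an interval of -0.86 to -0.39 (limma adjusted p = 0.043). Itgb3, its beta chain partner, had 6041, 4766 and 5095 in bone marrow and 6347, 2350 and 3616 in liver, which overlapped (-0.48, limma adjusted p = 0.53). The list had a median of -0.12, with 2 positive and 5 negative values. It had 1 gene at an unadjusted p under 0.05 in limma, against 15.7% of all genes. Whether the change of Itga2b differed from that of the 9 platelet genes was not tested.

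Over the 7 lists of other platelet genes, 81 of 95 genes were tested, 2 rose and 2 fell, and 77 did not pass, against 1.01% of all genes called. An unadjusted p under 0.05 was reached by 20 of the 81, against 15.7% of all genes. The lists were chosen with earlier results of these data known, so these counts are a description only. The granule biogenesis list had 1 gene that fell, Slc18a2, the transporter that loads serotonin and histamine into granules, with 5325, 5705 and 5363 normalized counts in bone marrow replicates 1, 2 and 3 and 3846, 3009 and 3297 in those of liver (-0.70, limma adjusted p = 0.027). Mast cells and basophils use this transporter too, and their genes Hdc, Cpa3, Fcer1a and Tpsb2 were lower in the same liver libraries, as given above. Prss34 of that list was higher in each of them, and Mcpt8 had a higher mean in liver (1714 against 925). A platelet source of the change in Slc18a2 cannot be told apart from a source in mast cells or basophils. The other 21 of its 22 tested genes did not pass. In activation signalling Rasgrp2, which switches on RAP1 and thereby integrins, rose from a mean of 1023 to 1557 (0.60, limma adjusted p = 0.040), with 14 of 15 not passing. Of the CXC chemokine genes beside Pf4 and Ppbp, Cxcl2 was the 1 of 5 with enough reads and rose from 151 ± 33.0 to 551 ± 34.3 (1.88, limma adjusted p = 0.010). Agonist receptors had 0 of 13 passing, 4 at an unadjusted p under 0.05. The smallest adjusted p there belonged to the thrombin receptor gene F2r (-0.31, limma adjusted p = 0.058), which DESeq2 called. The prostanoid receptor genes Ptgir (-0.46) and Ptger3 (-0.60) and another thrombin receptor gene, F2rl3 (0.39), followed. The proplatelet cytoskeleton had 0 of 12 passing, 4 at an unadjusted p under 0.05, with Tuba4a (0.20, called by DESeq2), Myh9 (-0.18), Pfn1 (0.15) and Tpm4 (0.68) nearest to it. The edgeR test called 0 in both lists, with 3 receptor genes and 4 cytoskeleton genes at an unadjusted p under 0.05, against 15.9% of all genes.

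These 4 calls, like the counts over all genes, depended on single libraries. Among the list genes, leaving out bone marrow replicate 1, 2 or 3 gave 1, 1 or 0 calls, and leaving out liver replicate 1, 2 or 3 gave 9, 2 or 0. Over all genes the same fits gave 11, 17 or 6 calls for bone marrow and 433, 86 or 8 for liver, against 145. The log2 fold change of Itga2b stayed between -0.74 and -0.53 and its limma adjusted p between 0.0011 and 0.23. Slc18a2 stayed between -0.79 and -0.62 (limma adjusted p from 0.0021 to 0.18), Rasgrp2 between 0.54 and 0.68 (0.0094 to 0.23) and Cxcl2 between 1.71 and 2.03 (0.0072 to 0.11). Without both replicates 3 there were 0 calls among the list genes and 2 over all genes.

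**Figure D4:**
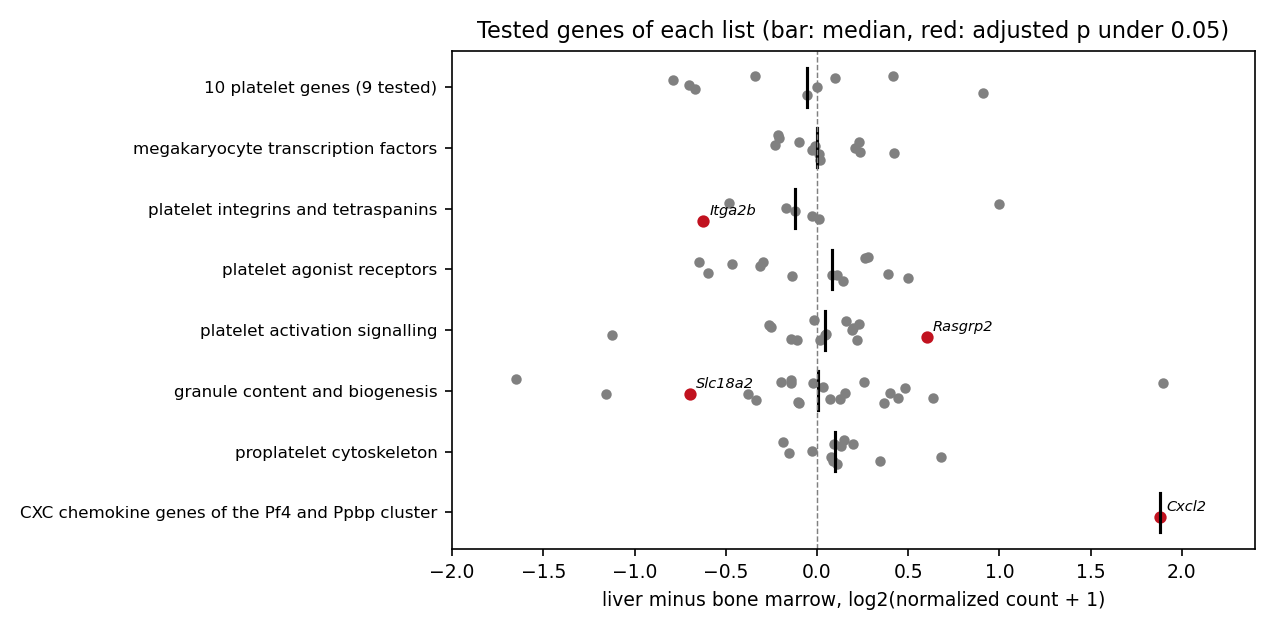
Log2 fold change of liver over bone marrow for each tested gene, in the 9 tested platelet genes (top row) and 7 lists of other megakaryocyte and platelet genes; black bars are medians and red points have an adjusted p under 0.05. The 4 red points are Itga2b and Slc18a2, lower in liver, and Rasgrp2 and Cxcl2, higher in liver.

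Most listed genes had enough reads for the test, among them Plek (25327 bone marrow and 16407 liver reads), but 14 of 95 did not. Some of these 14 belong to mature platelets and are named here beside Pf4, which had 28512 reads over the 3 bone marrow libraries and 20153 over those of liver. Tubb1, the beta tubulin of the platelet marginal band, had 3 bone marrow reads and 6 liver reads. G6b (now Mpig6b), an inhibitory receptor of the lineage, had 4 and 1, and P2ry12, the ADP receptor targeted by clopidogrel, had 18 and 9. F13a1, the coagulation factor XIII subunit, had 54 bone marrow reads, 39 of them in replicate 2, and 2 liver reads, and Myl9, a myosin light chain, 0 and 7. Pdgfb and Serping1 had 0 reads in all 6 libraries. These genes were singled out for their low values after those were seen.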

How the data were processed

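Leukemia stem cell RNA from 3 bone marrow and 3 liver libraries was extracted with a column kit and amplified with a low-input cDNA kit followed by tagmentation, per the labels' protocols. Tools named in the submitters' processing notes, in no stated order, are STAR 2.6.0c, Trimmomatic 0.36, R 3.4.1, DESeq2 1.16.1 and bcl2fastq 2.19.0. Which program counted reads, and on which build and gene models, is not given in the sources used here. Each deposited signal value is a gene's read count over a size factor of its library, per the deposited table's own name. In R 4.3.3, limma 3.58.1 was fitted to log2(value + 1) of the 14298 genes that averaged 10 or more, using a trended variance and no term beside tissue. Tests were two-sided and adjusted by Benjamini-Hochberg over these genes. Fold changes on this scale understate those of low genes. Recovered reads were also tested with edgeR 4.0.16 and DESeq2 1.42.0, and the fits were tested on simulated data. No 2 libraries of a tissue agreed within sampling noise (chi-square per degree of freedom 6.75 to 27.8). Members and lists were chosen with earlier results of these data known, and 1 gene of these lists is not reported here. Named genes are the 10 members, list genes past the threshold or else up to 4 with the smallest adjusted p, and the most similar profiles (5 for the mean of the members, 1 for each member). Gene positions are from GENCODE M21 (GRCm38), matched by symbol. Figures were drawn with matplotlib 3.10.9.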

Additional observations from a re-analysis of the deposited data

How the results depend on the processing

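No fit called any of the 9 tested platelet genes, over pseudocounts of 0.5 and 10, no minimum, a minimum mean of 50, TMM factors, edgeR, DESeq2, the replicate number as a term, each library left out, and both replicates 3 left out. With no minimum the tenth gene, Gp6, was tested and did not pass. In that limma fit 3 of 10 genes, Gp6, Gp1ba and Treml1, had an unadjusted p under 0.05, against 10.6% of 25910 genes. In the 10 settings other than leaving out 1 library, 88 of 90 values kept their sign and call. Part of this was fixed in advance. Log2 fold changes cannot move with no minimum, with a minimum mean of 50 or with the replicate number as a term. The fits without both replicates 3, with and without that term, share the same estimates. The log2 fold change of Gp9 was 0.17 in both edgeR and DESeq2. These tools also gave a median of 0.04 in place of -0.05, 0.96 and 0.95 for Gp1bb in place of 0.42, and -0.11 for Pf4 in place of -0.34. Leaving out 1 library turned the sign in 9 of 54 values. Over these 6 fits Pf4 ranged from -0.85 to 0.25, Gp9 from -0.58 to 0.53, Gp1bb from -0.30 to 1.41, Gp5 from -1.27 to 0.0016, Vwf from -0.22 to 0.22 and Cd9 from -0.0695 to 0.23, their median from -0.58 to 0.23, the genes called from 6 to 433 and the list genes called from 0 to 9. DESeq2 called 622 genes. Without both replicates 3, where fewer samples remain, 2 genes and 0 list genes were called.

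Replicate numbers were not taken as pairing. The deviations of same-numbered libraries correlated over genes with r = 0.443 for replicate 1, 0.399 for replicate 2 and 0.0578 for replicate 3. Replicate 3 lay near the mean of replicates 1 and 2 over all tested genes, so its low r cannot decide on pairing. Of the 6 libraries 5 correlated best with their own number. Bone marrow replicate 1 with liver replicate 2 gave -0.38, and bone marrow replicate 2 with liver replicate 1 gave -0.44. With the replicate number as a block 525 genes and 0 of 9 platelet genes were called, against 145 genes without it. In that fit Gp1ba and Treml1 had an unadjusted p under 0.05 in limma, against 19.6% of all genes. The lowest limma adjusted p of the 9 was 0.09, for Gp1ba. Intervals and p-values given above for single genes are from the fit without the block unless stated. With that block and without both replicates 3, an alternative chosen after seeing the data, 16 genes and 0 list genes were called. At 0 liver reads, Gp6 is limited by depth to the bound given for it.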
